A study of Mus musculus with 8 samples.

Results

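Meg3, Rian and Rtl1 are neighbouring genes of the imprinted Dlk1-Dio3 domain on distal mouse chromosome 12. They were taken from the allele-specific read counts by their symbols, and each had 1 row, so that 3 of 22810 genes are described here. Single blastocysts of embryonic day 3.5 (E3.5) were lysed directly, without culture, after natural mating of C57BL/6 (B6) with Mus musculus castaneus (cast) mice in both directions. There were 3 embryos of B6 mothers and cast fathers (forward cross, embryos 1, 2 and 3) and 5 of cast mothers and B6 fathers (reverse cross, embryos 1, 2, 3, 5 and 7). No embryo carried a targeted allele or received a treatment, and the labels give neither litter nor sex. Polyadenylated RNA of each embryo was amplified with SMART-Seq2, and reads that cover a SNP between the strains were counted separately for the B6 and the cast allele. The maternal count is therefore the B6 count in forward embryos and the cast count in reverse embryos. The embryos held between 1060063 and 1632695 such reads, with a median of 1277434 for the forward and 1498530 for the reverse embryos. The B6 allele held 57.4% to 58.3% of these reads in each embryo, and more embryos had B6 fathers than B6 mothers. Maternal and paternal reads summed over the embryos therefore also reflect strain.

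Genomic imprinting silences one parental copy of a gene according to its parent of origin. In the Dlk1-Dio3 domain the noncoding RNAs Meg3, Rian and Mirg are known to be transcribed from the maternal chromosome, while the protein-coding genes Dlk1, Rtl1 and Dio3 are known for expression from the paternal chromosome. A region upstream of Meg3 that is methylated on the paternal chromosome controls the domain. Meg3 is a long noncoding RNA that occurs in the nucleus, Rian is a host transcript of C/D box snoRNAs, and Mirg is a host transcript of microRNAs. Rtl1 encodes a protein derived from a retrotransposon that is required in the placenta. A maternal transcript runs antisense to Rtl1 and is the source of microRNAs that match the Rtl1 message perfectly.

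By their markers, the samples were blastocysts. Levels in rpm are reads per 1000000 SNP-spanning reads of the embryo, both alleles together, unless another base is named. All 8 trophectoderm, 7 epiblast and 7 primitive endoderm markers examined had reads, and the summed level per embryo ranged from 1783 to 5523 rpm for the trophectoderm list, from 580 to 1070 for the epiblast list and from 594 to 1185 for the primitive endoderm list. In whole embryos, fewer cells that express a gene and less RNA per cell cannot be told apart. Because the number of SNPs differs between genes, levels were compared between embryos and not between genes.

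Meg3 was read from the maternal allele in every embryo. In GRCm38 (mm10) with GENCODE M21 it is a lincRNA gene (ENSMUSG00000021268.17) on the plus strand at chr12:109541001-109571726, with 11 annotated transcripts. The forward embryos 1, 2 and 3 had 7, 7 and 7 maternal reads, and the reverse embryos 1, 2, 3, 5 and 7 had 6, 25, 5, 17 and 2. Paternal reads were 0 in 7 embryos and 1 in reverse embryo 3. The maternal count was thus above the paternal count in 8 of 8 embryos, and the lowest maternal count, 2 reads, exceeded the highest paternal count, 1 read. Only 2 of the 12566 tested genes (0.0159%) had their maternal reads in every embryo above their paternal reads in every embryo, and Meg3 was one of them.

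Over all embryos Meg3 had 76 maternal and 1 paternal read. The paternal share was 1.30% (exact 95% binomial interval 0.0329% to 7.02%), and the ratio of maternal to paternal reads was 76, with a counting interval from 13.2 to 3041. The reads carry no molecular identifiers, so that these intervals and all limits for a count of 0 cover counting error only. In edgeR's quasi-likelihood test with strain and parent as terms, the log2 ratio of paternal to maternal expression was -5.13 ± 0.89 (SE). The fit used the 16 allele libraries of the 8 embryos. For this and all later edgeR log2 ratios, the SE was derived from the ratio and its test statistic and not estimated separately. The Benjamini-Hochberg adjusted p of the parental difference was 0.00163. At an adjusted p of at most 0.1, the threshold for a call, 39 of 12566 genes (0.31%) were called maternal in this test. An exact two-sided permutation test over the signs of the 8 embryos gave p = 0.00781, the smallest value possible for 8 embryos, for a mean difference of -14.5 ± 12.3 (SD) paternal minus maternal rpm of the allele library. The permutation p is at its floor because all 8 embryos were more maternal, and it does not measure the size of the difference. The edgeR fit has no term for the embryo, and with such a term its adjusted p was 0.00724.

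The sequence around the start of Meg3 is shown because Meg3 is the gene with maternal reads in every embryo. RefSeq gives it for GRCm38.p6 on the plus strand at chr12:109540746-109541045, from 250 bases before to 50 bases after the annotated start, and the capitals mark a cAMP response element (TGACGTCA) and a TATA motif (TATAAA).
Meg3 promoter: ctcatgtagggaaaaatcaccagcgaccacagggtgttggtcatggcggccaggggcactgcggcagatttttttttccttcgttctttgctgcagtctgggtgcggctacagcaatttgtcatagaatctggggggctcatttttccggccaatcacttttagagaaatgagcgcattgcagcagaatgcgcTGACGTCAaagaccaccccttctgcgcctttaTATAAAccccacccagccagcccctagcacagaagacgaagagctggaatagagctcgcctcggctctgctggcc
The response element began 57 bases and the TATA motif 25 bases before the annotated start. Searched on both strands, TGACGTCA was found in 1.79% and TATAAA in 13.6% of 32851 promoters of this length, and both occurred together in 0.170%. The TATA motif and its reverse complement overlap here. The Meg3 window held 13 CG dinucleotides, compared with 1 at a further annotated start of Meg3, with a median of 7 over all promoters, with 0 in the Rian promoter and with 10 in the Mirg promoter. Neither motif was found in the Rian or Mirg window. These matches are descriptions of the sequence.

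Rian, which hosts snoRNAs and lies downstream of Meg3, was read only from the maternal allele, in 6 of 8 embryos. It is annotated as a processed transcript (ENSMUSG00000097451.10) on the plus strand at chr12:109603940-109661716, 62.9 kb from the start of Meg3, with 20 transcripts. Forward embryos 1, 2 and 3 had 0, 0 and 4 maternal reads, and reverse embryos 1, 2, 3, 5 and 7 had 29, 10, 8, 14 and 11. All reverse embryos lay above all forward embryos, also in rpm, as in 311 of 13079 genes (2.38%). No embryo had a paternal read. The total was 76 maternal reads and 0 of 76 paternal reads, which allows a paternal share of up to 3.95%, so that the maternal allele was at least 25.3-fold higher with the limit of 3 counts taken over all embryos. Without reverse embryo 1, which held 29 of the reads, the bound was 15.7-fold. The exact 95% binomial interval, as given for Meg3, is wider and reached a paternal share of 4.74% over all embryos.

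The parental difference of Rian passed the threshold, with an adjusted p of 0.0302 in edgeR's quasi-likelihood test. The exact permutation test gave p = 0.0313 with 6 of 8 embryos more maternal and a mean difference of -16.0 ± 15.3 (SD) rpm of the allele library. The 2 embryos without reads hold no information on the allele. When the alleles of each embryo were paired by an embryo term, the adjusted p was 0.111. Forward embryo 3 was the only forward embryo with Rian reads, and without it the adjusted p was 0.194.

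Rtl1 was also read only from the maternal allele, in the same 6 embryos. This protein-coding gene (ENSMUSG00000085925.3) lies on the minus strand at chr12:109589193-109600330, between Meg3 and Rian. Forward embryos 1, 2 and 3 had 0, 0 and 5 maternal reads, and reverse embryos 1, 2, 3, 5 and 7 had 3, 30, 10, 16 and 5. Reverse embryo 2 was highest, as it was for Meg3, and reverse embryo 1 lay below forward embryo 3. Paternal reads were 0 of 69, which allows a share of up to 4.35%, and the maternal allele was at least 23.0-fold higher. Without reverse embryo 2, which held 30 of the reads, the bound was 13.0-fold. The exact 95% binomial interval reached a paternal share of 5.21% over all embryos.

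For Rtl1 the adjusted p of the parental difference was 0.0516 in edgeR's quasi-likelihood test, and the exact permutation test gave p = 0.0313 with 6 of 8 embryos more maternal and a mean difference of -14.0 ± 15.6 (SD) rpm of the allele library. The adjusted p was 0.132 with a term for each embryo. It was also above 0.1 when single embryos were left out, at 0.318 without forward embryo 3, 0.158 without reverse embryo 2, 0.123 without reverse embryo 5 and 0.101 without reverse embryo 3.

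The maternal reads of the Rtl1 row cannot be assigned to a strand. Whether the authors' counting used strand is not given in the sources used here, and the SMART-Seq2 chemistry does not mark it, so reads of Rtl1 and of its antisense partner cannot be told apart. RefSeq lists the antisense RNA 6430411K18Rik at chr12:109591537-109592851, inside the long exon of Rtl1, and it has no row of its own in the counts. The RefSeq span of Rtl1, chr12:109564900-109604418, is longer than the GENCODE span and overlaps the end of Meg3 and the start of Rian, and which annotation the counts used for this gene was not tested. The Rtl1 exon that spans 6296 bases also holds 6 microRNA hairpins on the opposite strand. A further hairpin lies within the gene on the strand of Rtl1. The 11 mature microRNAs of the 6 opposite-strand hairpins all lay within the coding sequence. All had a perfect reverse complement in the 6358-base Rtl1 transcript, which follows from their place opposite the exon.

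The mature microRNAs show what such an antisense transcript carries. For each hairpin the 3p arm, or the single listed form, is printed from RefSeq (GRCm38.p6, plus strand), with the seed (bases 2 to 8) in capitals.
mmu-miR-431-3p, chr12:109590502-109590523: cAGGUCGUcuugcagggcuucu
mmu-miR-433-3p, chr12:109591781-109591802: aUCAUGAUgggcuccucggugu
mmu-miR-127-3p, chr12:109592888-109592909: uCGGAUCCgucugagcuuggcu
mmu-miR-434-3p, chr12:109594565-109594586: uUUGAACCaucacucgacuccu
mmu-miR-432, chr12:109595006-109595028: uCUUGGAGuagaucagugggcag
mmu-miR-136-3p, chr12:109595366-109595387: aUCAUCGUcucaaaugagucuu
All 11 seeds of the 6 hairpins differed from each other. From the start of Meg3 to the end of Mirg, RefSeq lists 57 microRNA hairpins, 54 of them on the plus strand, with 1 inside Meg3, 3 inside Rian and 14 inside Mirg. MicroRNAs themselves were not measured in these libraries.

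**Figure D1:**
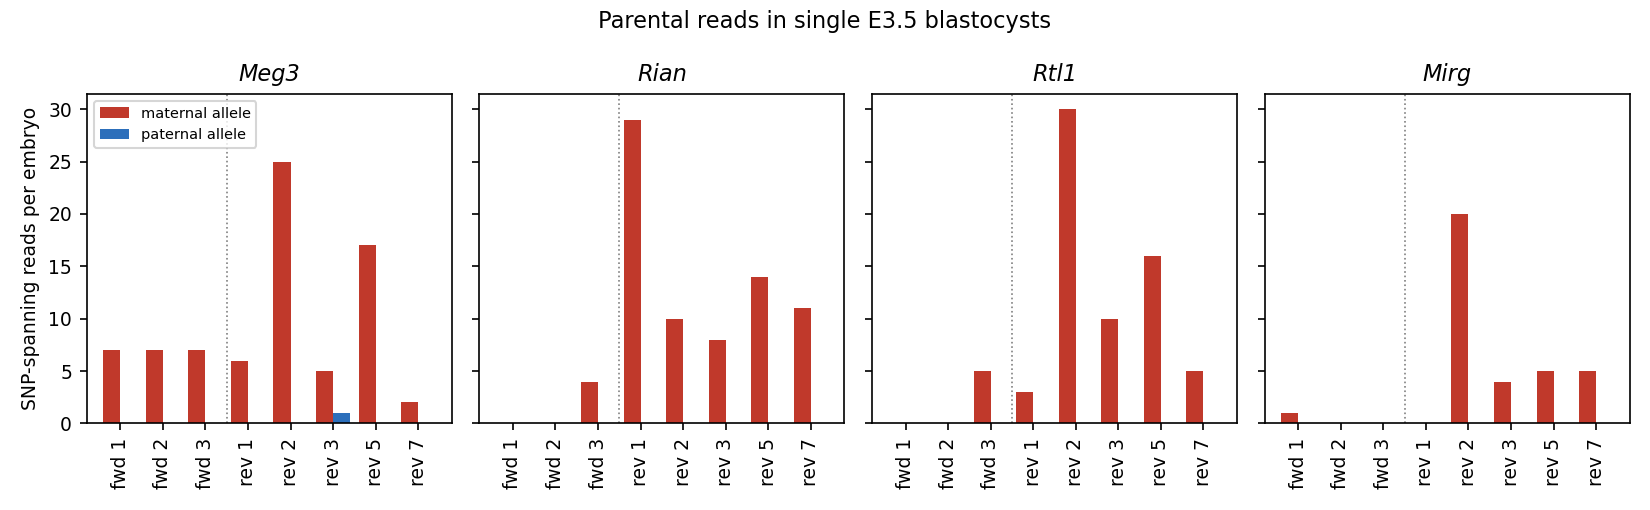
SNP-spanning reads of the maternal (red) and paternal (blue) allele in each of the 8 blastocysts, for Meg3, Rian, Rtl1 and Mirg, with forward and reverse (fwd, rev) embryos separated by a dotted line. The single paternal read is that of Meg3 in reverse embryo 3, and forward embryos 1 and 2 have no bar for Rian and Rtl1.

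Among all genes, so few paternal reads were uncommon. Of the tested autosomal genes, 178 (1.42%) were called for a parental difference, with 39 (0.31%) called maternal and 139 (1.11%) called paternal. In this fit, which has no term for the embryo, 3 of the 3 genes described here were called maternal. All 3 had enough reads for testing in maternal libraries only. The filter itself thus chose them by high maternal counts, and 3 of 3 cannot be weighed against the 0.31% of all tested genes. With a term for each embryo, 130 genes (1.03%) were called maternal, Meg3 with an adjusted p of 0.00724 among them, and Rian and Rtl1 were not. At least 60 reads with at most 1 paternal read, a rule chosen after the values were seen, applied to 12 of 10662 genes (0.113%), namely Asz1, C1qb, C4b, Ccl6, Cxcl13, H19, H2-Aa, Meg3, Rian, Rtl1, Thrsp and Tspan10. The rule does not separate RNA of the embryo from RNA of the mother's cells. C1qb (279 maternal and 1 paternal read) belongs to the macrophage list, which had 1596 maternal and 41 paternal reads. The precision of the shares rests on 77, 76 and 69 reads for Meg3, Rian and Rtl1, compared with a median of 309 reads over the tested genes, which is a count of informative reads and not a comparison of expression. The test for equal expression of the alleles (against a log2 difference of 1 in either direction) called 4446 genes (35.4%) and gave an adjusted p of 1 for Meg3, Rian and Rtl1.

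**Figure D2:**
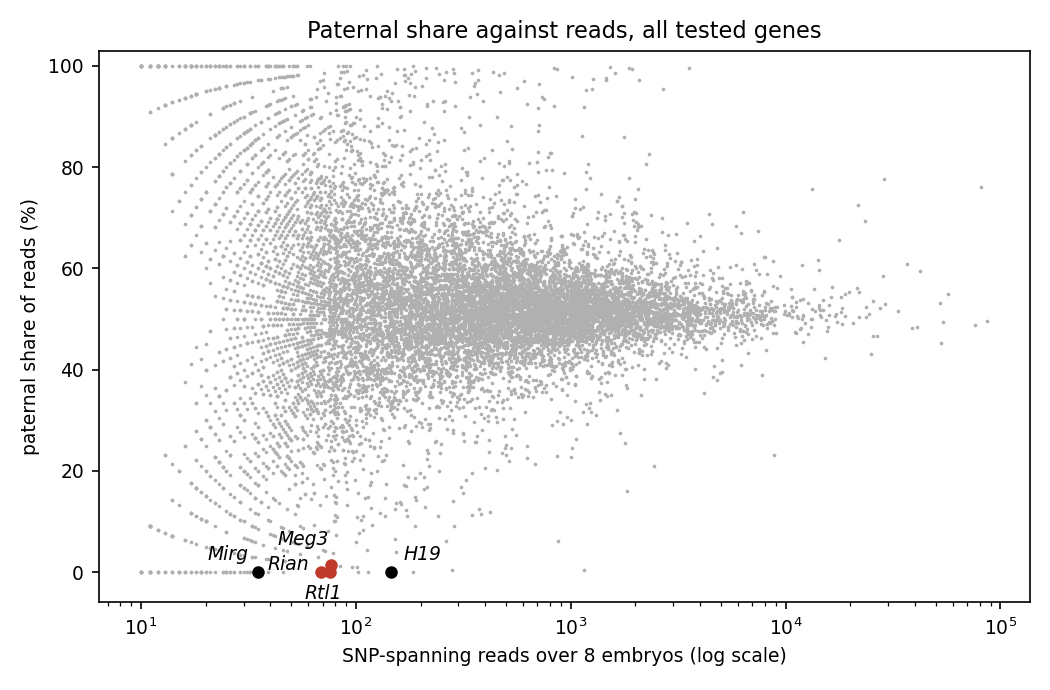
Paternal share of the reads in percent against the total of SNP-spanning reads over 8 embryos (log scale), with 1 grey point for each of the 12566 tested genes, red points for Meg3, Rian and Rtl1, and black points for Mirg and H19. The red points lie at shares of 1.30%, 0% and 0% at the bottom of the plot, left of the median of 309 reads.

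The rest of the domain was read more sparsely. Between the start of Begain and the end of Dio3, which span 1249 kb, 13 genes had a row, and each had at least 1 read. Of these, 5 had the 10 reads in 1 allele library required for testing, each in maternal libraries only. Of the 5, 3 were called maternal, beside 0.31% of all tested genes. The filter itself chose these genes by high maternal counts, so the count of calls says nothing further about the interval. Begain itself had no row in the counts.

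Mirg, the microRNA host at the far end of the maternal noncoding genes (chr12:109729764-109749460), had 1, 0 and 0 maternal reads in the forward embryos. The reverse embryos 1, 2, 3, 5 and 7 had 0, 20, 4, 5 and 5. It had 0 of 35 paternal reads, which allows up to 8.57%, and was at least 11.7-fold higher from the maternal allele, with an adjusted p of 0.266 in edgeR's quasi-likelihood test. Without reverse embryo 2 the bound was 5-fold. Reverse embryo 2 was again the highest, and reverse embryo 1, the highest for Rian, had none. Gm34081, a lincRNA on the minus strand between Dlk1 and Meg3, had 31 maternal and 2 paternal reads in 5 embryos, all of them more maternal, with an adjusted p of 0.292 (edgeR).

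Of the known paternally expressed neighbours, Dlk1, which encodes a transmembrane ligand of the Notch family, had 1 maternal and 0 paternal reads, too few to show a direction. Dio3, the deiodinase that inactivates thyroid hormone, had 7 maternal and 9 paternal reads, a paternal share of 56.2% with an exact binomial interval from 29.9% to 80.2%. The 7 maternal reads were all in reverse embryo 3, and the other 4 embryos with Dio3 reads had more paternal reads. The divergent transcript Dio3os had 10 maternal and 0 paternal reads in 3 reverse embryos. Gm34554 had 13 and 5 and Gm34667 3 and 7 maternal and paternal reads. Mir1188, which lies within Rian, and Gm34719 and Gm34785 had 1 maternal read each. None of these 8 genes reached the number of reads for testing.

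**Figure D3:**
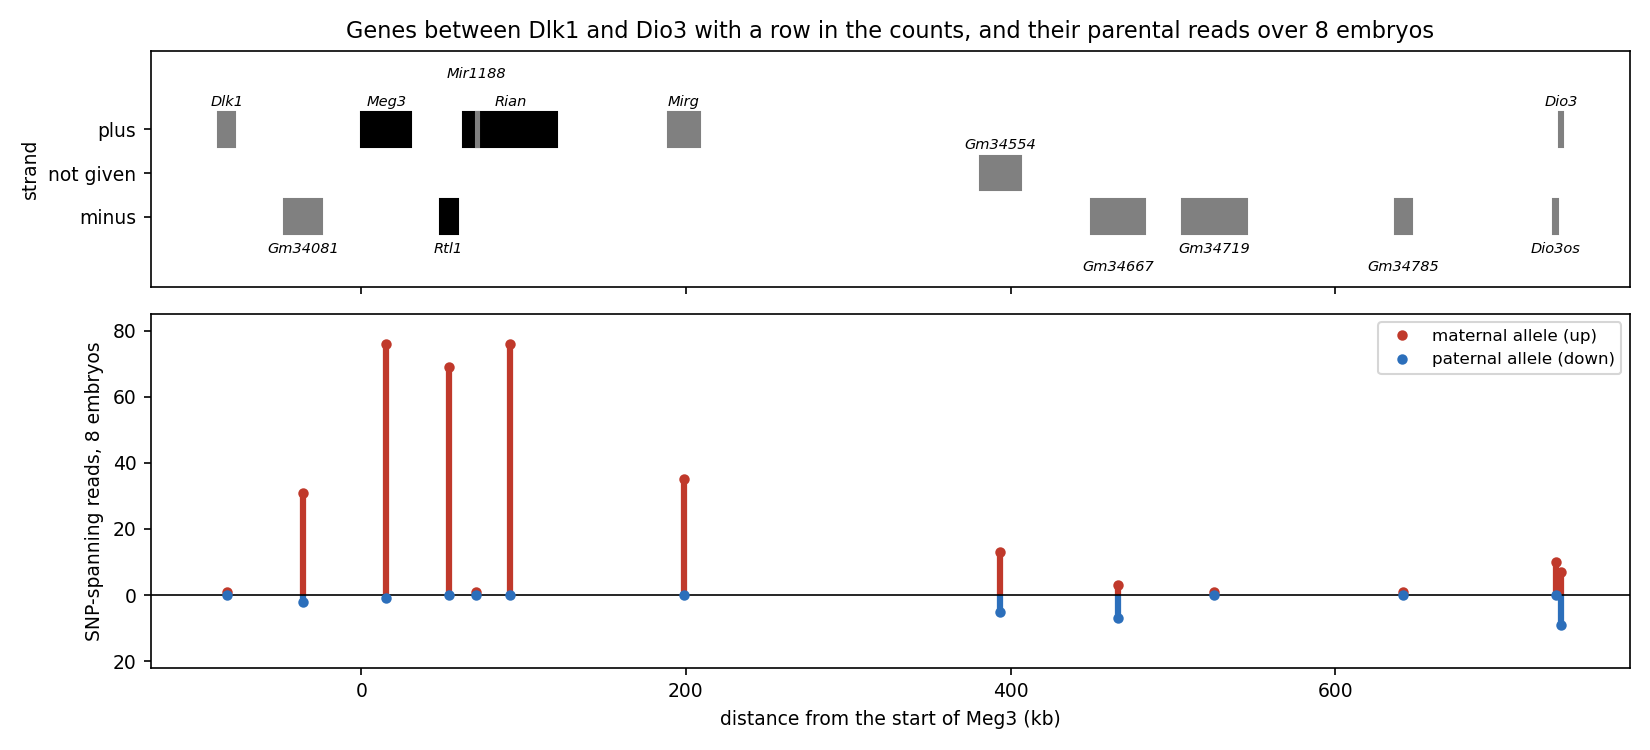
The 13 genes of the Dlk1-Dio3 interval with a row in the counts, by distance from the start of Meg3 in kb (upper panel, by strand, with Meg3, Rian and Rtl1 in black), and their maternal (upward, red) and paternal (downward, blue) reads summed over 8 embryos. The tallest maternal lines are those of Meg3 (76), Rian (76), Rtl1 (69), Mirg (35) and Gm34081 (31), and the longest paternal line is that of Dio3 (9).

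The level of the genes was compared between the crosses, and none was called. Rian was measured at 1.04 ± 1.81 rpm (SD, n = 3) in the forward and 10.3 ± 5.51 rpm (SD, n = 5) in the reverse embryos, with ranges of 0 to 3.13 and 5.34 to 19.3 rpm that do not overlap. In edgeR's quasi-likelihood test of summed alleles the log2 ratio of reverse to forward was 3.19 ± 1.10 (SE) with a raw p of 0.0115 and an adjusted p of 0.520, and DESeq2 gave an adjusted p of 0.155. The ratio rests on forward embryo 3, without which no forward reads remain and the fitted log2 ratio was 6.84, and it was 2.56 without forward embryo 1. In edgeR's test 9 genes (0.0688%) were called for the level by cross, with Meg3, Rian and Rtl1 not among them. An exact two-sided permutation test over embryos, chosen after the separation had been seen, gave p = 0.0357, the smallest value that 3 against 5 embryos allow. A count of 0 in an embryo allows up to 3 reads, which is close to the 4 reads of Rian in forward embryo 3. The trophectoderm list, most of whose reads were of Krt8 (18849) and Krt18 (14877), also separated by cross. It had 4494 to 5523 rpm in the forward and 1783 to 4397 rpm in the reverse embryos. The primitive endoderm list separated too, with 1057 to 1185 against 594 to 1036 rpm. How many genes had all forward above all reverse embryos was not counted. The epiblast list overlapped, with 745 to 1070 rpm in the forward and 580 to 873 rpm in the reverse embryos. Reverse embryo 1, the highest for Rian, had the lowest trophectoderm sum, 1783 rpm. The part of these lists in the level of Rian was not tested.

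Rtl1 was at 1.30 ± 2.26 rpm (SD, n = 3) in the forward and 8.83 ± 6.66 rpm (SD, n = 5) in the reverse embryos, and the ranges of 0 to 3.91 and 1.99 to 18.8 rpm overlapped. The exact permutation test gave p = 0.0714 and edgeR an adjusted p of 0.662. Meg3 was at 5.28 ± 0.911 rpm in the forward and 7.66 ± 6.12 rpm in the reverse embryos (SD, n = 3 and 5). The Meg3 levels spread from 4.29 to 6.08 rpm in the forward and from 1.89 to 15.6 rpm in the reverse cross, and the difference was within the spread between embryos (exact permutation p = 0.714, edgeR adjusted p = 0.917). Mirg was at 0.204 ± 0.354 rpm in the forward and 4.73 ± 4.69 rpm in the reverse embryos, with overlapping ranges (exact permutation p = 0.143, n = 3 and 5). These 4 permutation p values are not adjusted for one another. The strain of the mother, that of the father and the litter cannot be told apart in this comparison.

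**Figure D4:**
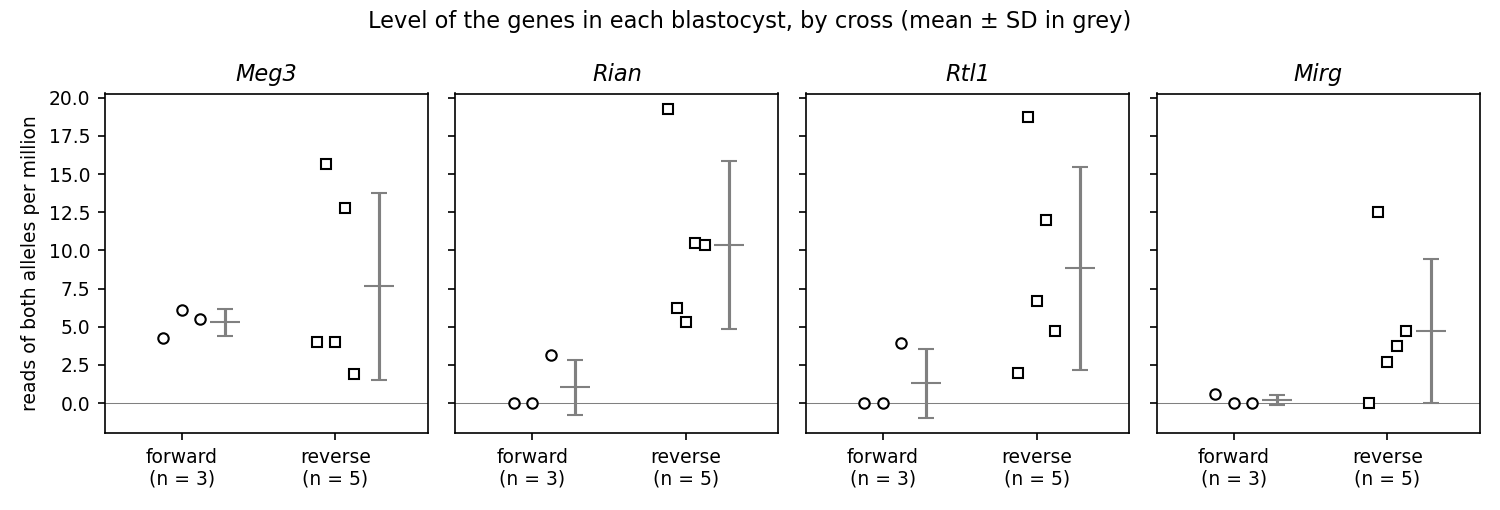
Level of both alleles in rpm in each forward (circles, n = 3) and reverse (squares, n = 5) blastocyst for Meg3, Rian, Rtl1 and Mirg, with the mean ± SD of each cross in grey. Rian is the gene of the 4 whose reverse embryos (5.34 to 19.3) all lie above the forward embryos (0 to 3.13).

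The strain term of the allele model asks whether the parental difference itself differed between the crosses, since a strain effect has opposite parental directions in them. For Rian this term had a log2 ratio of cast to B6 of 3.04 ± 1.11 (SE) and an adjusted p of 0.0983 in edgeR's quasi-likelihood test, whereas Rtl1 had 2.61 ± 1.19 with an adjusted p of 0.196 and Meg3 0.52 ± 0.86 with an adjusted p of 0.795. Strain differences were called for 1935 genes (15.4%), of which 563 (4.48%) were toward cast. Because all Rian reads were maternal, its strain term compares the cast maternal allele of the reverse cross with the B6 maternal allele of the forward cross, and it rests on the same reads as the level by cross. It shows no difference in allelic share. With a term for each embryo the strain difference of Rian had an adjusted p of 1, since with paternal counts of 0 it could not be estimated.

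The likeness of the genes across libraries is given as a description with no test. Over the 16 allele libraries, Pearson's r of log2(rpm of the allele library + 1) was 0.743 between Meg3 and Rian, 0.809 between Meg3 and Rtl1, 0.909 between Rian and Rtl1 and 0.688 between Meg3 and Mirg. The 8 paternal libraries are at or near 0 for all of these genes, so that these values largely restate the maternal origin of the reads. Over the 8 maternal libraries alone, chosen after seeing the data, r was 0.207 between Meg3 and Rian, 0.545 between Meg3 and Rtl1, 0.798 between Rian and Rtl1 and 0.456 between Meg3 and Mirg. Reverse embryo 1, with the most Rian reads (29), had 6 reads of Meg3, 3 of Rtl1 and 0 of Mirg. Of 11507 genes outside the interval with at least 40 reads, those nearest to Meg3 over the 16 libraries were Sema3e (0.835), Emc2 (0.834), Ptpn23 (0.822), Scarb2 (0.818) and Gpsm2 (0.813). Their maternal and paternal reads were 75 and 6 for Sema3e, 215 and 27 for Emc2, 142 and 29 for Ptpn23, 636 and 453 for Scarb2, and 113 and 45 for Gpsm2.

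RNA of the mother's cells would be counted as maternal. The macrophage list (14 of 15 genes with reads, 1596 maternal and 41 paternal) summed to between 43.4 and 894 rpm in the forward and between 5.26 and 8.64 rpm in the reverse embryos. Of its maternal reads, 1456 were in forward embryo 1, and Lyz2 alone had 1144 over all embryos. Mrc1 (2 maternal and 11 paternal reads) and Cd68 (6 and 7) had more paternal reads. The uterine stroma and fibroblast list had reads for 5 of 10 genes, with 18 maternal and 11 paternal reads and 0 to 4.38 rpm per embryo, and its markers Col3a1, Hoxa10, Hoxa11, Hand2 and Postn have no row. The oocyte list (11 of 11 genes, 183 maternal and 56 paternal reads) ranged from 11.3 to 29.3 rpm and the cumulus and granulosa list (6 of 9 genes, 56 and 67 reads) from 4.004 to 19.97 rpm. The oviduct and uterine epithelium list (7 of 9 genes, 939 and 893 reads) ranged from 62.5 to 363 rpm. The red blood cell list (3 of 7 genes, 201 and 7 reads, of which 199 and 6 were from the X-linked Alas2) ranged from 3.91 to 11.3 rpm in the forward and from 2.67 to 51.2 rpm in the reverse embryos, with its highest value in reverse embryo 1, where Rian was also highest. The part of these lists in the reads of the domain was not tested.

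Calls among other genes known for maternal expression went in both directions. Of 30 such genes, Meg3, Rian and Mirg included, 29 had a row and 18 were tested, of which 3 were called maternal, 3 paternal and 12 neither way. Of the 15 tested genes outside the domain, 1 was called maternal, 3 paternal and 11 neither way, beside 0.31% maternal and 1.11% paternal calls over all genes. The median log2 ratio of paternal to maternal expression was -0.29 for the list and -0.01 for all tested genes. The maternal calls were H19 (145 maternal and 0 paternal reads, adjusted p = 0.00378), Meg3 and Rian. All H19 reads were from forward embryos (20 to 100 per embryo), its strain term was called as well (adjusted p = 0.000885), and so was its level by cross (adjusted p = 0.0187), so that maternal and B6 origin are not separated by these reads. The paternal calls were Kcnq1 (41 and 1423 reads), a potassium channel overlapped by the antisense RNA Kcnq1ot1, Igf2r (144 and 473 reads), a receptor gene overlapped by the antisense RNA Airn, and Ppp1r9a (414 and 1461 reads), all by edgeR's quasi-likelihood test. The strain term of Ppp1r9a was called as well, toward B6 (log2 ratio of cast to B6 -3.19, adjusted p = 0.00121, edgeR). Its parental log2 ratio was 2.54, so its read sums hold both differences. The strain terms of Kcnq1 and Igf2r were not called. Among the most read of the genes not called were Trappc9 with 1007 maternal and 808 paternal reads and the ubiquitin ligase Ube3a with 358 and 297.

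Genes that set or keep the marks of imprinted control regions were read from both alleles. Of 19 such regulators all 19 were tested and 0 were called by edgeR, beside 1.42% of all genes, a share at which 0 of 19 says nothing about the regulators. With a term for each embryo 2 were called. There were 2 at an unadjusted p under 0.05, Dnmt1 (332 maternal and 670 paternal reads) and Tet3 (235 and 82), chosen for naming by these values. The most read were Dppa3, which protects maternal methylation after fertilisation (17104 maternal and 25142 paternal reads), the Polycomb cofactor Jarid2 (5010 and 5535), the corepressor Trim28 (4022 and 3830) and the 5-methylcytosine oxidase Tet2 (2917 and 3582). For Dppa3 the log2 ratio of paternal to maternal expression in edgeR was -0.03. Its strain term was called toward B6 (log2 ratio of cast to B6 -1.58, adjusted p = 0.00107, edgeR). Zfp57, the zinc finger protein that recruits Trim28 to imprinted regions, had 45 maternal and 21 paternal reads and an adjusted p of 0.995.

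**Figure D5:**
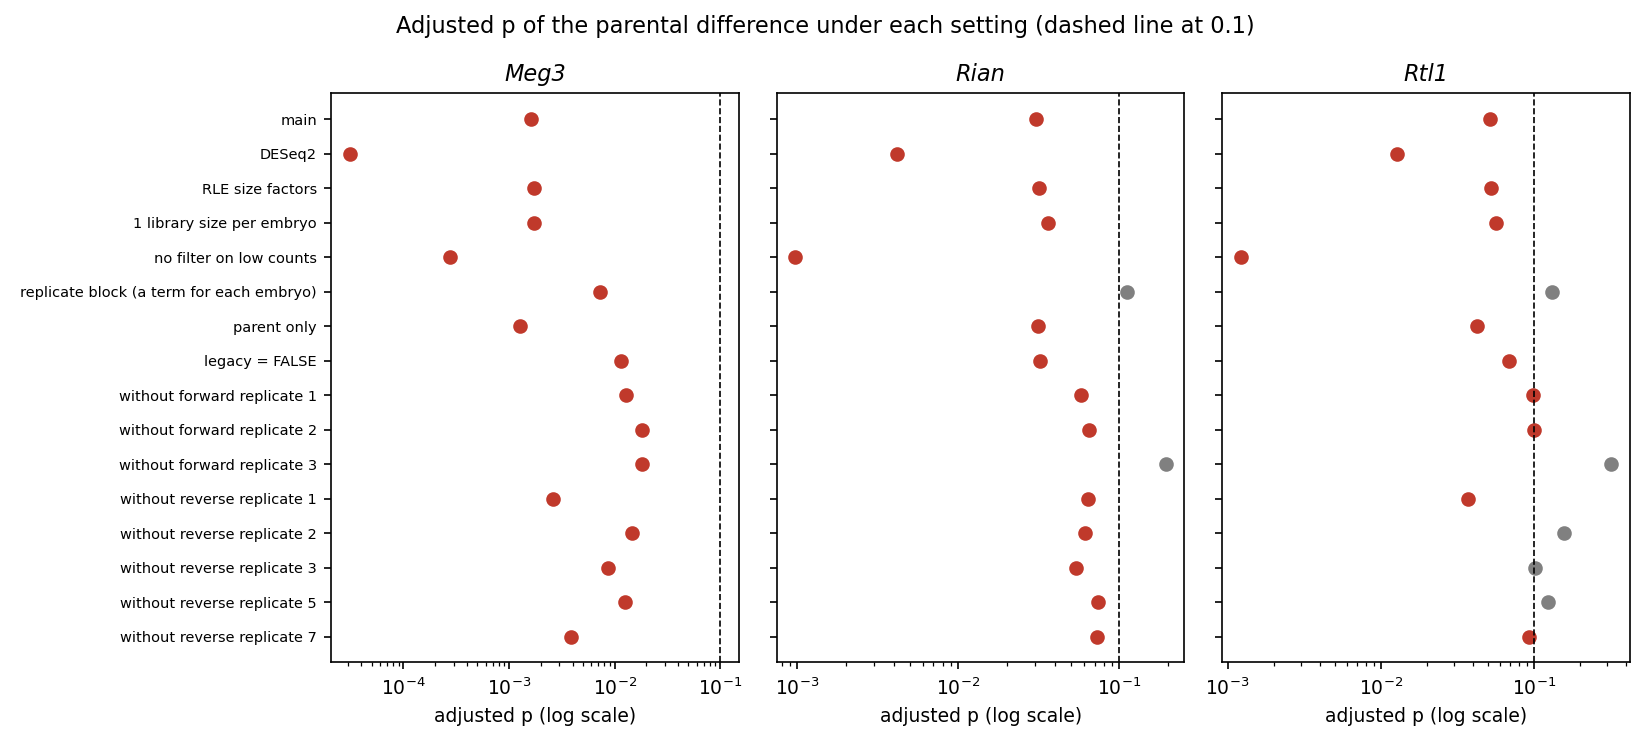
Adjusted p (log scale) of the parental difference of Meg3, Rian and Rtl1 under the model as reported (top, main) and each alternative in which the gene was tested, with the threshold of 0.1 as a dashed line, values below it in red and values above it in grey. Meg3 stays below the line in every row, Rian is above it with a term for each embryo (0.111) and without forward embryo 3 (0.194), and Rtl1 is above it in 5 rows.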

How the data were processed

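RNA of 8 single E3.5 blastocysts was examined. The authors aligned reads to mm10 with STAR (version 2.5.2b per the submitters' processing notes), excluded reads mapping to several places and counted SNP-covering reads per gene and strain. The deposited values are raw counts without normalisation. Gene positions came from GENCODE M21 and, for unmatched symbols, RefSeq (18286, 2999 and 417 by synonym, with 1108 unmatched). X-linked and unmatched genes were not tested.

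Parental alleles were compared with edgeR 4.0.16 (R 4.3.3, limma 3.58.1), TMM factors, strain and parent as terms, the quasi-likelihood test and Benjamini-Hochberg adjustment over 12566 autosomal genes with at least 10 reads in at least 1 of 16 allele libraries. Calls had an adjusted p of at most 0.1. Levels by cross used the sum of both alleles. Exact permutation tests used scipy 1.17.1. Alternatives included DESeq2 1.42.0, RLE size factors, other filters, a term for each embryo and leaving out each embryo. The scripts were tested on simulated data.

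Maternal and paternal alleles of 1 embryo form a true pair (correlation of their deviations from 0.0670 to 0.415 over the 8 embryos), so the result with a term for each embryo is given where it changes a call. The labels name no litter, and p-values refer to these embryos only. In the main fit of parental alleles they rest on the spread between allele libraries. Embryo totals, 1060063 to 1632695 reads, limit the precision at low counts. Named genes were the 3 genes, all genes of the interval, called and most read genes of the other lists, and the 5 genes nearest to Meg3. The genes and lists were chosen with earlier results of these data known.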

Additional observations from a re-analysis of the deposited data

Results flagged for a closer look

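The strain term of Rian, which in the edgeR quasi-likelihood model tests the parental difference between the crosses, had an adjusted p of 0.0983 and a log2 ratio of cast to B6 of 3.04 ± 1.11 (SE). The 76 Rian reads were all maternal, 4 of them from forward and 72 from reverse embryos, so the term shows no difference in allelic share. The level by cross, which rests on the same reads, had an adjusted p of 0.520, and with a term for each embryo the strain term could not be estimated (adjusted p = 1). Of the 8 fits without 1 embryo, 1 kept the adjusted p at or below 0.1, and their values ranged from 0.0293 to 0.277. The 5 reverse embryos were examined for each of 8 genes of the interval, and no single embryo was apart from the others. The forward embryos were not examined in this way.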

How the results depend on the processing

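Meg3 kept its parental call under every alternative in which it was tested, with adjusted p between 3.11e-05 and 0.0181. With the replicate block, which pairs the alleles of 1 embryo by a term for each embryo, the adjusted p was 0.111 for Rian and 0.132 for Rtl1, and the strain difference of Meg3 changed sign (log2 ratio -0.25, adjusted p = 0.765) without being called in either fit. The strain difference of Rian had an adjusted p of 1 with the block and 0.120 with 1 library size per embryo, and that of Rtl1 0.0734 with legacy = FALSE. The level of Rian by cross had p = 0.0357 in the exact permutation test, which was chosen after seeing the data. The filterByExpr defaults removed Meg3, Rian and Rtl1 from the test, because few libraries had enough reads.

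Leaving out 1 embryo gave adjusted p from 0.00260 to 0.0181 for Meg3, 0.0535 to 0.194 for Rian and 0.0370 to 0.318 for Rtl1. The exact permutation p was 0.0156 in each case for Meg3 and ranged from 0.0313 to 0.0625 for Rian and for Rtl1, where 0.0625 is the smallest value possible with 5 embryos that have reads. The strain difference ranged from 0.663 to 0.985 for Meg3, from 0.0293 to 0.277 for Rian and from 0.0573 to 0.450 for Rtl1, and the level by cross from 0.738 to 0.999, from 0.312 to 0.999 and from 0.251 to 0.999.

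Of the interval, 3 genes were called maternal, 0 with filterByExpr, 1 with the block and 1 to 3 without 1 embryo. Of the imprinted genes known for maternal expression, 3 were called maternal, 0 with filterByExpr, 1 with the block and 2 to 3 without 1 embryo. Of the regulators, 0 were called, 1 without a filter, 1 with legacy = FALSE, 2 with the block and 0 without any 1 embryo. Over all genes 39 were called maternal, 66 by DESeq2, 130 without a filter, 4 with filterByExpr, 130 with the block, 94 with legacy = FALSE and 17 to 58 without 1 embryo (17, 24 and 21 without forward embryos 1, 2 and 3). Paternal calls numbered 139, 276 without a filter, 55 with filterByExpr, 261 with the block, 212 with legacy = FALSE and 99 to 139 without 1 embryo. The cause of these changes was not tested. In all, 223 of 275 values under alternatives were rated as kept. For tests this means the same direction and side of the threshold, and for counts of called genes a value near the main one. The tests for equal expression, called for none of the 3 genes under any setting, are among those kept. Totals of 69 to 77 reads over 8 embryos set the lowest paternal share that could be seen.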
